A study of Mus musculus with 3 samples.

Results

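Indian hedgehog (Ihh), parathyroid hormone-related protein (Pthlh), its receptor Pth1r, the transcription factors Mef2c and Mef2d, the channel protein Panx3 and the membrane protein Ifitm5 are 7 genes that hypertrophic cartilage and osteoblasts share. They were taken by symbol from a list of names, and all 7 were found among the 43280 genes listed. A gene counted as measured at a mean of 5 CPM or more (counts scaled to a common library size) across libraries, which 12127 genes and 6 of the 7 reached. Pthlh stayed below that floor, and Ihh passed it only through the control library.

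RNA came from E15.5 mouse skeletal mesenchyme, calvarial according to the design text, where the flat skull bones form. The control was fx/fx at Ctnnb1 (beta-catenin), with both copies floxed and no Cre. The library called cKO was fx/fx with Dermo1-Cre, in which Cre is made from the Twist2 locus of mesenchymal cells and removes beta-catenin. Dermo1-Cre was also present in the dTF-cKO library, whose genotype was fx/dm. The name dm is not explained in the labels; in mouse genetics a Ctnnb1 allele so named yields a protein that still works in cell adhesion and has no transcriptional output. Every genotype carried a floxed allele, and no fx/dm library without Cre was analysed here. Each genotype had 1 library and the number of embryos behind it is not stated, so the comparisons are of single libraries, without a replicate check.

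In a growth plate, prehypertrophic chondrocytes secrete Ihh, which raises the production of Pthlh near the joint end. Pthlh then acts on Pth1r, a receptor coupled to cAMP, and holds chondrocytes back from hypertrophy, while Mef2c drives hypertrophy together with Runx2. Osteoblasts use the same parts: they carry Pth1r, make Panx3 and Ifitm5 as they mature, and in the skull they form bone mostly without a cartilage model, with Ihh made at the growing bone edge.

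The 3 libraries differed in more than genotype. Values given as 3 numbers follow the order control, cKO, dTF-cKO. Ctnnb1 stood at 1026, 745 and 442 CPM. Xist had 1233, 0 and 2 counts and the Y-linked Ddx3y 0, 161 and 157, so sex-linked transcripts separated the control from both Cre libraries. The 19 osteoblast markers summed to 198100, 43600 and 10760 CPM, and the 15 epidermal markers to 158, 23870 and 12200 CPM. Col10a1, the defining collagen of hypertrophic chondrocytes, had only 9, 20 and 0 counts and was not measured. The control thus held abundant osteoblast transcripts and very few of Col10a1, and the label "hypertrophic" is used here for the genes and not for the cells. In such bulk samples fewer cells of a type and less RNA per cell cannot be told apart.

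The stretches upstream of 4 of these genes are shown as examples: 3 of them, Ihh, Ifitm5 and Pth1r, were at least 2-fold lower together and Mef2d was not. They are RefSeq sequences of GRCm38.p6, 5′ to 3′ on the gene's strand, from 250 to 51 bases before the RefSeq start, and the Pth1r stretch, before 1 of its RefSeq starts, leaves out bases of a GENCODE exon. Capitals mark matches on either strand to the GC box GGGCGG, the GLI motif GACCACCCA, the TCF/LEF motifs CTTTGAT and CTTTGTT, and the MEF2 motif.
Ihh, minus strand of chr1:74951723-74951922: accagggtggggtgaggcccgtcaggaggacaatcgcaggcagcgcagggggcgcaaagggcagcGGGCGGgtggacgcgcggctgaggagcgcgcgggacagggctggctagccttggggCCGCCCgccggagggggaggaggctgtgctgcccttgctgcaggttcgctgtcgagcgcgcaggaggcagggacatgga
Ifitm5, minus strand of chr7:140950294-140950493: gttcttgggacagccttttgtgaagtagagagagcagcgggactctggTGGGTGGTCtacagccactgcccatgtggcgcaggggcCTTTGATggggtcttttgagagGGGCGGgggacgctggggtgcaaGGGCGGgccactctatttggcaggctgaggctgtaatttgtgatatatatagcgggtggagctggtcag
Pth1r, minus strand of chr9:110742720-110742860: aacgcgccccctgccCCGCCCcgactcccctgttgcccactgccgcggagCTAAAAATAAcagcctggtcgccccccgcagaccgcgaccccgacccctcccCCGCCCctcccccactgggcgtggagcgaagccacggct
Mef2d, plus strand of chr3:88142122-88142321: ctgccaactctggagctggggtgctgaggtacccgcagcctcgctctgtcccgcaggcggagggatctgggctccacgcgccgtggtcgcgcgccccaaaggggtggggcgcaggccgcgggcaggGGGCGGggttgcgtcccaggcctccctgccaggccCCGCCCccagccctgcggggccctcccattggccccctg
The promoter table held 10 windows for 6 of the 7 genes, and Panx3 had no entry. Windows of Mef2c, which was lower as well, and of Pthlh are not shown. Of the Pth1r windows, the one shown is the only one with capitalised matches. The Ifitm5 stretch held 1 GLI match, starting 202 bases before the RefSeq start on the opposite strand, and 1 CTTTGAT match at 164 bases. Among all 32851 promoter stretches of the same length, 0.192% held the GLI motif and 2.64% CTTTGAT. The MEF2 match of Pth1r began 200 bases before that start, and 2.42% of all stretches held one. The Ihh, Ifitm5, Pth1r and Mef2d stretches shown each held 2 GC boxes, a motif of 24.6% of all stretches. The 2 other Pth1r windows and the 3 Mef2c windows held 0. Of the Mef2c windows, 1 held CTTTGTT (4.06% of all stretches). None of the 10 windows held the RUNX motif TGTGGT (11.6% of all stretches). The short core of the cAMP response element, TGACG, with no capitals here, occurred in the windows of Ihh and of another Pth1r start (12.7% of all stretches). These matches describe letters and not binding.

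**Figure D1:**
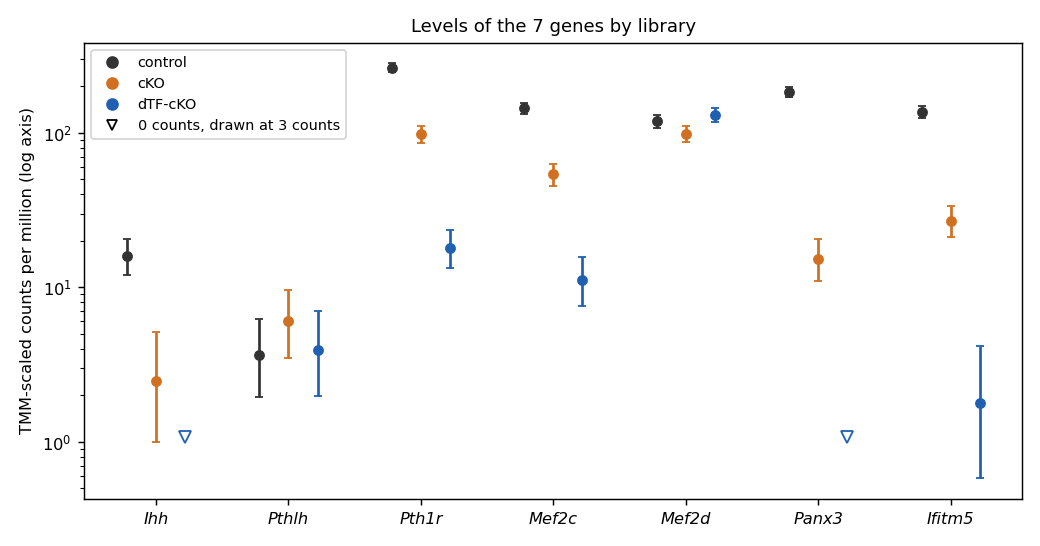
Level of each gene in CPM on a log axis, 1 point per library with its exact 95% Poisson interval; open triangles mark libraries with 0 counts, drawn at the level of 3 counts. Pth1r, Mef2c, Panx3, Ifitm5 and Ihh descend from control to cKO to dTF-cKO, whereas the Mef2d points lie between 98.3 and 131 CPM.

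The ligand Ihh (chromosome 1, 74945315 to 74951672, minus strand, mm10) was low throughout. Its counts were 57 (15.9 CPM, interval 12.1 to 20.7), 7 (2.48 CPM, 0.996 to 5.10) and 0, with an interval up to 1.32 CPM. The control interval lies above those of both Cre libraries. Against the control, Ihh was lower by a factor of 6.44 in the cKO (2.93 to 16.7). In the dTF-cKO it was at least 11.7-fold lower by the limit of the interval. With 7 against 0 counts the difference between the Cre libraries rests on very few reads: the ratio has an upper limit of 0.701, so the dTF-cKO level may be as little as 1.43-fold lower, and a 2-fold difference was not resolved. The other hedgehog ligands gave no larger signal. Shh had 0, 2 and 0 counts and Dhh 15, 4 and 2.

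Pthlh, the ligand of the other arm (chromosome 6, 147252101 to 147264183), had 13, 17 and 11 counts. These are 3.64, 6.01 and 3.93 CPM, and their intervals overlap. The cKO to control ratio was 1.65 (0.756 to 3.70) and the dTF-cKO to control ratio 1.08 (0.438 to 2.62), so at this depth neither a 2-fold difference nor its absence was shown. Keratinocytes are a known source of Pthlh, and of 14 measured epidermal markers 13 exceeded the control by 2-fold or more in the cKO, and all 14 in the dTF-cKO library. Of the 15, Ivl and Flg were at 0 in the control and Flg in the Cre libraries. The part of these cells in the Pthlh counts was not tested.

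Pth1r, the shared receptor for Pthlh and parathyroid hormone (chromosome 9, 110722085 to 110747145), had the most reads of the 7 in the control. Its counts were 944, 276 and 50, or 264, 97.6 and 17.9 CPM. No interval overlaps another. Against the control, Pth1r was lower by a factor of 2.71 in the cKO (2.36 to 3.10) and of 14.8 in the dTF-cKO (11.1 to 20.1). The factor between the Cre libraries was 5.47 (4.03 to 7.54). Relative to Pthlh counts of the same library, a ratio free of any scaling, Pth1r was 4.47-fold lower in the cKO (2.01 to 10.1) and 15.98-fold lower in the dTF-cKO (6.10 to 40.5) than in the control. Pth1r counts were therefore lower relative to Pthlh counts in both Cre libraries, though Pthlh lay below the floor. Whether receptor and ligand transcripts came from the same cells was not tested. Myl3, a muscle gene on the opposite strand, shares 95 exon bases with Pth1r and had 24, 0 and 0 counts; without a known strand setting, reads from those bases cannot be assigned. Pth and Pth2, ligands of the same receptor family, had 0 counts in every library, and the related receptor Pth2r had 2, 2 and 0.

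Mef2c and Mef2d went apart. Mef2c (chromosome 13, 83504034 to 83667080) had 514, 152 and 31 counts, or 144, 53.8 and 11.1 CPM, with no overlap of intervals. Against the control it was lower by factors of 2.67 in the cKO (2.23 to 3.23) and of 13.0 in the other Cre library (9.03 to 19.3). Mef2d (chromosome 3, 88142372 to 88172086) had 425, 278 and 366 counts, or 119, 98.3 and 131 CPM. The cKO to control ratio was 0.827 (0.709 to 0.965). The dTF-cKO to control ratio was 1.10 (0.954 to 1.27), and it turned to 0.857 (0.743 to 0.988) with totals that omit the 20 most abundant genes per library. Between the Cre libraries Mef2d was 1.33-fold higher in the dTF-cKO (1.14 to 1.56). Mef2a, another factor of the family, had 331, 350 and 267 counts, and Mef2b had 0 in every library. Within a library, Mef2c per Mef2d count was 2.21-fold lower in the cKO (1.74 to 2.82) and 14.3-fold lower in the dTF-cKO (9.62 to 21.8) than in the control, so the 2 factors did not change in proportion under any scaling. Per Mef2a count, Mef2c was 3.58-fold (2.81 to 4.56) and 13.4-fold lower (8.92 to 20.6). An antisense gene overlaps 531 exon bases of Mef2d and had 0, 3 and 3 counts.

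Skeletal muscle and endothelium also express Mef2c. All 14 measured muscle markers were at least 2-fold lower in each Cre library, and the 15 markers summed to 1995, 314 and 18.9 CPM, with Myog, Myod1, Ckm and Neb at 0 in the dTF-cKO. Of 13 endothelial markers, 0 were lower and 1 higher in the cKO, and 8 were lower in the dTF-cKO; none was at 0, and they summed to 1073, 1565 and 332 CPM. Under the stroma scaling defined further on, 14 of 14 muscle markers and 2 of 13 endothelial markers were lower in the dTF-cKO. Endothelial markers are among the genes that define that scaling, so their smaller count there was partly set in advance. The part of muscle and endothelium in the Mef2c counts was not tested.

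**Figure D2:**
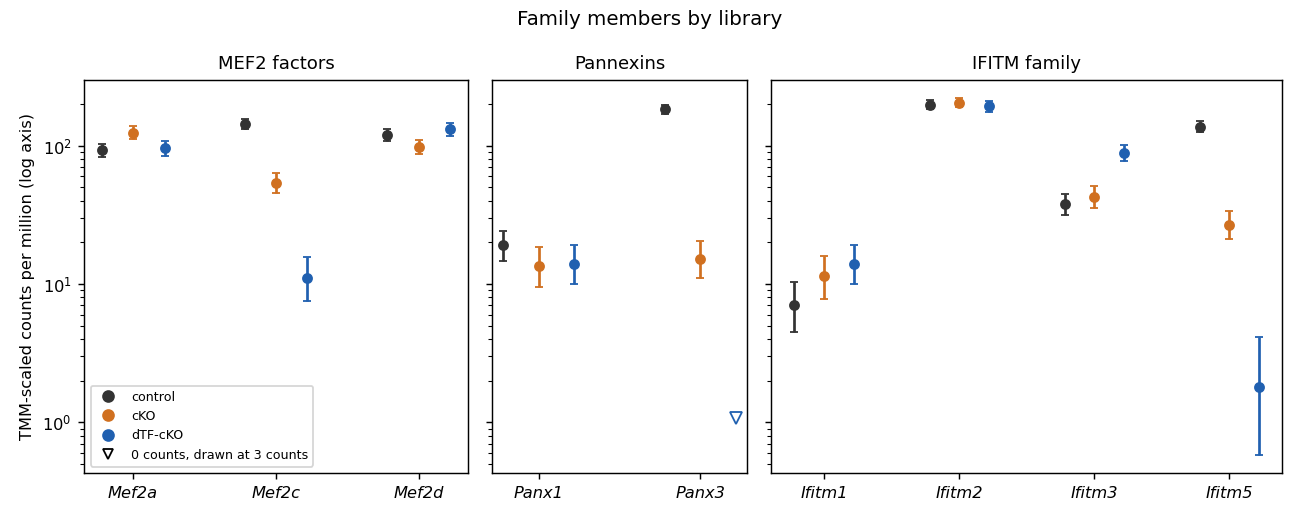
Levels in CPM (log axis) of MEF2 factors, pannexins and IFITM genes, 1 point per library with its exact 95% Poisson interval and an open triangle for 0 counts at the level of 3 counts. Mef2c, Panx3 and Ifitm5 span over a factor of 10 between libraries, while Mef2a, Mef2d, Panx1 and Ifitm2 lie close together under TMM scaling.

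Panx3 and Ifitm5 are the genes of maturing bone cells. Panx3 (chromosome 9, 37659902 to 37669235), a channel of osteoblasts and late chondrocytes, had 656, 43 and 0 counts. These are 183.5 CPM, 15.2 CPM and 0 with an interval up to 1.32 CPM. Panx3 was 12.1-fold lower in the cKO (8.86 to 16.8) and ranked 8th from the lowest of the 12127 measured genes. By the interval limits, its dTF-cKO level was at least 139-fold below the control and at least 11.05-fold below the cKO. Panx1, its widely expressed relative, had 68, 38 and 39 counts, and Panx2 had 4, 1 and 1. Per Panx1 count, Panx3 was 8.53-fold lower in the cKO (4.98 to 14.5) and at least 93.2-fold lower in the dTF-cKO.

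Ifitm5 (chromosome 7, 140948958 to 140950291), also called Bril, is a membrane protein largely restricted to osteoblasts. It had 489, 76 and 5 counts, or 137, 26.9 and 1.79 CPM, again with no overlap. Against the control it was lower by factors of 5.09 in the cKO (3.99 to 6.57) and of 76.6 in the other Cre library (32.6 to 237). The factor between the Cre libraries was 15.05 (6.17 to 47.7). Its neighbours in the gene family behaved differently. Ifitm2 had 706, 579 and 537 counts, Ifitm1 25, 32 and 39, and Ifitm3 135, 120 and 248. Per Ifitm2 count, Ifitm5 was 5.28-fold (4.03 to 6.97) and 74.4-fold lower (31.3 to 233). Ifitm1, Ifitm2 and Ifitm3 are close in sequence and their counts may be split unevenly. An annotated transcript of Gm45717 shares 227 exon bases with Ifitm5 and was not analysed here.

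Counted over the 6 measured genes, 5 lay 2-fold or more below the control and 0 above it in the cKO, where 6.78% of all measured genes were that much lower and 9.66% higher. The median log2 difference was -1.87, against 0.06 over all genes. In the dTF-cKO against the control, 5 were lower and 0 higher, where 20.9% of all genes were lower and 19.5% higher. That median was -4.25, or -3.87 with 3 counts taken for 0 in Ihh and Panx3, against 0.06 over all genes. In the dTF-cKO against the cKO, 5 were lower and 0 higher, Ihh on 7 against 0 counts, where 20.5% of all genes were lower and 14.5% higher. The median was -2.34 (-2.31 with 3 counts taken for 0), against 0.01. Mef2d was the exception each time. Ihh entered these counts only through its control level, and its 2-fold call between the Cre libraries is that of the fitted value alone. With a floor of 20 CPM, which leaves Ihh out, 4 of 5 genes were lower in each comparison, and the medians were -1.43, -3.84 and -2.41. Each pair of these comparisons shares a library, so their counts are not independent of each other. The log2 differences between the Cre libraries follow from those against the control.

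**Figure D3:**
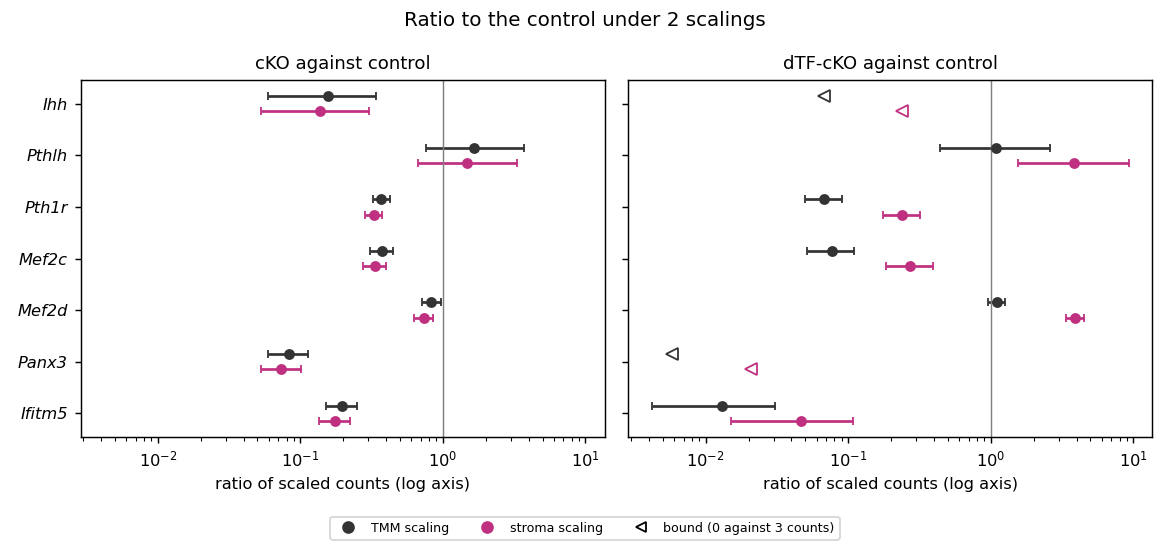
Ratio of scaled counts to the control on a log axis for each gene, cKO on the left and dTF-cKO on the right. Bars are exact conditional 95% intervals, black is TMM scaling and magenta the stroma scaling. Open triangles take 3 counts for 0 and are not interval limits. Pth1r, Mef2c, Panx3, Ifitm5 and Ihh stay left of 1 in both panels under both scalings, and in the dTF-cKO Mef2d moves from 1.10 to 3.90.

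The size of these differences depended on what the libraries were scaled to. The stroma scaling set to 0 the median difference from the control of 44 measured genes of endothelium, smooth muscle and pericyte, dermis and meninges. It shifted every log2 difference from the control by -0.17 in the cKO and by 1.83 in the dTF-cKO, where it left 74.4% of 13158 measured genes at least 2-fold higher and 5.11% lower. These shares were 8.19% and 9.6% for the cKO against the control, and 78.0% and 4.07% between the Cre libraries. Against those shares, the 7 genes, all measured then, gave 5 lower and 0 higher in the cKO, and 5 lower and 2 higher in the dTF-cKO. Under it Pth1r was 3.05-fold lower in the cKO (2.66 to 3.50) and 4.17-fold lower in the dTF-cKO (3.14 to 5.66) than in the control. Mef2c was 3.01-fold (2.51 to 3.63) and 3.66-fold lower (2.55 to 5.45). Ifitm5 was 5.73-fold (4.49 to 7.40) and 21.6-fold lower (9.19 to 66.8), and Panx3 13.6-fold (9.97 to 19.0) and at least 39.15-fold lower. Between the Cre libraries the Pth1r and Mef2c ratios were then 0.731 (0.530 to 0.991) and 0.823 (0.540 to 1.22), no longer 2-fold. Ifitm5 stayed 3.77-fold lower in the dTF-cKO (1.55 to 11.9) and Panx3 at least 2.77-fold. Ihh, with 7 against 0 counts, was not resolved there (upper limit of the ratio 2.80). Mef2d and Pthlh were 3.90-fold (3.38 to 4.50) and 3.83-fold higher (1.56 to 9.27) in the dTF-cKO library than the control, among the many genes that this scaling puts higher.

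A comparison that needs no scaling sets each gene against osteoblast transcripts of the same library. Of the 19 osteoblast markers, 17 were at least 2-fold lower in the cKO, and 18 were so in the dTF-cKO, where Omd was at 0; under the stroma scaling 18 and 13 were. Per count of their sum, Panx3 was 2.66-fold lower in the cKO library (1.95 to 3.70) and at least 7.54-fold lower in the dTF-cKO. Ifitm5 kept close to the sum in the cKO, with a ratio of 0.893 (0.692 to 1.14), but was below the sum without Col1a1 and Col1a2 (0.709, 0.549 to 0.905) and below Runx2 (0.658, 0.474 to 0.909). In the dTF-cKO it was 4.16-fold lower per count of the sum (1.77 to 12.9). Pth1r and Mef2c were higher per osteoblast count in the cKO, by 1.68-fold (1.46 to 1.92) and 1.70-fold (1.41 to 2.04), though per Runx2 count the intervals included 1 (0.969 to 1.59 and 0.949 to 1.65). In the dTF-cKO their ratios were 1.25 (0.917 to 1.66) and 1.42 (0.953 to 2.04). The sum is dominated by Col1a1 and Col1a2, and without them the dTF-cKO ratios became 0.460 for Pth1r (0.339 to 0.612) and 0.524 for Mef2c (0.352 to 0.754). Per count of Runx2 they were 0.437 (0.291 to 0.656) and 0.498 (0.307 to 0.794). Ihh could not be separated from the osteoblast sum: its ratio was 0.706 in the cKO (0.272 to 1.55), with an upper limit of 1.57 in the dTF-cKO. Without the 2 collagens that upper limit was 0.581, and per Runx2 it was 0.571, so the dTF-cKO value was below both of these references. In the cKO their intervals included 1 (0.216 to 1.23 and 0.195 to 1.18). Panx3 was thus lower than each of these references in both Cre libraries, and Ifitm5 in the dTF-cKO. This holds for these references and not for each marker alone. Without the 2 collagens, Sparc held 40557 of 68349 counts in the control and 11382 of 14986 in the cKO. Under TMM scaling the log2 differences of the 19 markers ran from -3.49 (Ibsp) to -0.74 in the cKO. In the dTF-cKO they ran from -10.5 (Ibsp) to -0.64. Panx3 in the cKO (-3.54) lay close to Ibsp, and Ifitm5 in the dTF-cKO (-5.82) lay within the range of the markers. The direction for Pth1r and Mef2c in the dTF-cKO turned with the reference. Mef2d was higher per osteoblast count by 3.76-fold (3.22 to 4.38) and 20.2-fold (17.6 to 23.4). The latter was 7.48-fold without the 2 collagens (6.47 to 8.64) and 7.11-fold per Runx2 (5.24 to 9.74).

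**Figure D4:**
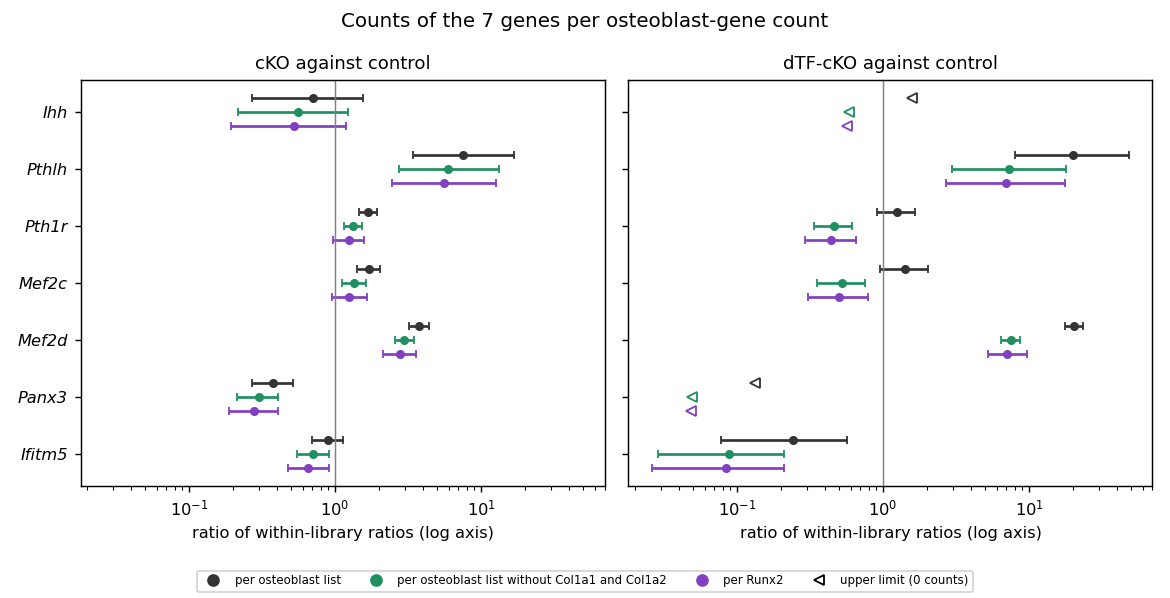
Each gene's count per osteoblast-gene count in the cKO (left) and dTF-cKO (right) relative to the control, on a log axis with exact conditional 95% intervals; colours are 3 references and open triangles upper limits for libraries with 0 counts. Panx3 lies left of 1 for every reference drawn, Ifitm5 does so in the dTF-cKO, and Mef2d and Pthlh lie right of 1.

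Scaled to exon length (CPM per kb), the order of the genes changed between libraries. In the control it ran Ifitm5 (179), Pth1r (90.3), Panx3 (53.4), Mef2d (19.9), Mef2c (9.15), Ihh (5.23) and Pthlh (2.25 CPM per kb). The counting intervals of neighbours in this order did not overlap, the closest being Ihh (3.96 to 6.78) and Pthlh (1.20 to 3.84). These intervals do not cover the choice of length, which joins all annotated exons of a gene. It was 15.7 kb for Mef2c and 5.985 kb for Mef2d, and by counts in the control Mef2c (514) stood above Mef2d (425). In the cKO Ifitm5 (35.1) and Pth1r (33.4) overlapped at the top, Mef2d followed at 16.4, Panx3 (4.43), Pthlh (3.71) and Mef2c (3.42) overlapped, and Ihh was last at 0.812. In the dTF-cKO Mef2d led at 21.9 CPM per kb, ahead of Pth1r at 6.11. Pthlh stood at 2.43, Mef2c at 0.705, and Ihh and Panx3 at 0. Ifitm5, at 2.335 on 5 counts, had an interval (0.758 to 5.45) that overlapped those of Pth1r, Pthlh and Mef2c. Mef2d thus stood below Ifitm5, Pth1r and Panx3 in the control and above all of them in the dTF-cKO.

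The gene lists that follow are counted by the 2-fold rule, beside the shares over all genes of 6.78% lower and 9.66% higher in the cKO and of 20.9% lower and 19.5% higher in the dTF-cKO. Under the stroma scaling, where 5.11% of all genes were lower and 74.4% higher in the dTF-cKO, the dTF-cKO counts of most lists differed, and they are given beside the first.

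Around the ligand Ihh, 15 genes of hedgehog reception and output were measured. In the cKO 2 of them, Gli1 and Hhip, lay 2-fold or more below the control (median -0.33), and in the dTF-cKO 13 were lower and 0 higher (median -1.62). Under the stroma scaling only 2 were lower and 1 higher in the dTF-cKO (median 0.17). Gli1, a transcription factor and direct target of the pathway, had 290, 110 and 14 counts, and was 2.09-fold lower in the cKO (1.67 to 2.62) and 16.2-fold lower in the dTF-cKO (9.51 to 30.0). Hhip, a target that binds and blocks the ligand, had 123, 42 and 7 counts. Gli2 had 300, 235 and 42 and the co-receptor Gas1 483, 502 and 77, and under TMM scaling they were 5.59-fold (4.04 to 7.92) and 4.91-fold lower (3.85 to 6.33) in the dTF-cKO library than the control. Under the stroma scaling Gli2 was 1.58-fold (1.14 to 2.23) and Gas1 1.39-fold lower (1.09 to 1.79), so neither was 2-fold lower. Gli1, at 4.57-fold lower (2.68 to 8.47), and Hhip, at 3.88-fold (1.83 to 9.85), were.

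Downstream of Pth1r the picture was mixed. Of 22 measured genes of PTHrP receptor signalling, 0 were lower and 3 higher in the cKO (median -0.15), and 6 were lower and 3 higher in the dTF-cKO (median -0.45), shares near those over all genes. With the stroma scaling, 1 was lower and 15 higher there (median 1.35). Zfp521, a repressor and PTHrP target in chondrocytes and osteoblasts, had 563, 257 and 21 counts and was 21.0-fold lower in the dTF-cKO (13.6 to 34.2), or 5.92-fold under the stroma scaling (3.83 to 9.64). Adcy3, an adenylyl cyclase, had 252, 105 and 39 counts, and Arrb1, an arrestin that turns receptors off, 183, 160 and 25. Sik1, a kinase that cAMP signalling induces, went the other way with 95, 270 and 1251 counts, 3.59-fold higher in the cKO (2.84 to 4.59) and 16.8-fold in the dTF-cKO library (13.7 to 20.95). Of 11 measured regulators and relatives of the MEF2 factors, 0 were 2-fold different in the cKO (median 0.35) and 2 were higher in the dTF-cKO (median 0.39), a share near that over all genes. The stroma scaling put 11 of 12 higher there (median 2.03). The 2 under TMM scaling were Camk2d, a kinase that phosphorylates class IIa histone deacetylases, with 138, 143 and 345 counts, and Hdac5, such a deacetylase and a repressor of MEF2 factors, with 439, 382 and 727.

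Among other growth-plate hypertrophy genes 17 were measured, of which 9 were lower and 0 higher in the cKO (median -1.36) and 13 lower and 2 higher in the dTF-cKO (median -2.57). There, 7 were lower and 4 higher by the stroma scaling (median -0.81). Ibsp had 12627, 885 and 5 counts, Sp7 1092, 153 and 2, Alpl 2612, 406 and 15, and the collagenase Mmp13 376, 38 and 2. All 4 are also genes of osteoblasts, and only Mmp13 is outside the osteoblast list used here. Spp1, Runx2 and Phospho1, lower in the cKO as well, are on that list too, so the cKO count draws largely on osteoblast genes. Col10a1, below the floor and not among the 17, went the other way in the cKO, with a ratio of 2.81 (1.22 to 7.01) on 20 against 9 counts. Whether hypertrophic cartilage itself differed was not tested. Genes of chondrocytes before hypertrophy differed from the 17 in the cKO: 0 of 18 were lower and 10 higher (median 1.39). Under the stroma scaling 2 were lower and 9 higher there (median 1.22). Matn1, among the higher ones, had 36, 448 and 20 counts. Acan, the main cartilage proteoglycan, had 533, 772 and 11, and at 1.83-fold higher in the cKO (1.64 to 2.05) it missed the 2-fold rule. In the dTF-cKO 8 were lower and 1, Snorc, higher (median -0.87), but the direction of the median turned under the stroma scaling, with 5 lower and 7 higher (median 0.86). Snorc had 0, 33 and 10 counts, so its dTF-cKO call rests on 10 against 0 counts. Sox5, a cartilage transcription factor, had 46, 30 and 1 counts. In the cKO, 5 of the 6 measured genes that cartilage and bone share were thus lower, while 10 of 18 genes of early cartilage were higher. Under the stroma scaling these were 5 of 7 and 9 of 18.

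**Figure D5:**
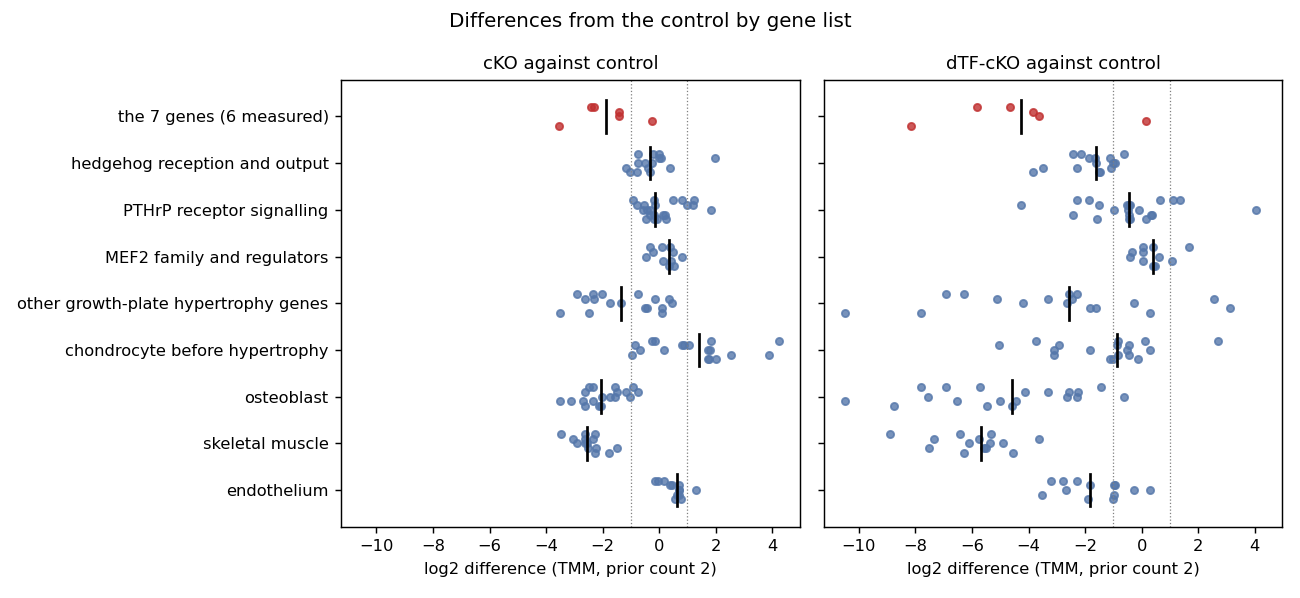
Log2 differences from the control for the 6 measured genes (red) and for 8 gene lists without them (blue), cKO on the left and dTF-cKO on the right; black bars are medians and dotted lines a 2-fold difference. The red medians are -1.87 and -4.25, and the list of chondrocytes before hypertrophy has medians of 1.39 and -0.87, the latter turning to 0.86 under the stroma scaling, which is not drawn.

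Beside Panx3, 7 other pannexins and connexins were measured. In the cKO 0 were lower and 2 higher, and in the dTF-cKO 3 were lower and 1 higher, or 2 and 4 under the stroma scaling. The arterial connexins Gja5 and Gja4 had 74, 49 and 0 and 55, 49 and 3 counts, Gjc1 had 129, 84 and 25, and the epithelial connexin Gjb2 56, 363 and 208. Beside Ifitm5, 7 relatives and partners were measured, with 0 lower and 1 higher in the cKO and 1 lower and 2 higher in the dTF-cKO, or 0 and 7 of 8 under the stroma scaling. Fkbp11, a folding enzyme that binds Ifitm5, was the lower one, with 187, 78 and 54 counts (2.71-fold, 1.99 to 3.74, and a ratio of 1.31, 0.948 to 1.78, under the stroma scaling). The tetraspanin Cd9 had 258, 486 and 1649 counts.

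The genes nearest in pattern were found by the Euclidean distance of centred log2 CPM over the 3 libraries, a description of few points. The nearest to Panx3 were Slc13a5, Sp7 and Slc8a3, at 0.68 to 0.81, and no measured gene lay within 0.5. For Ihh they were Myom1, Col1a1 and Atp2a1 (0.11 to 0.17), and for Ifitm5 Myl4, Mlip and Mybph (0.19 to 0.23). The nearest to Pth1r were Ccp110, Nov and Cdr2l (0.04 to 0.08), and to Mef2c Nrp2, Gramd1b and Sec16b (0.04 to 0.10). Within 0.5 of Mef2d there were 3304 genes, against 29 for Ihh, 91 for Pth1r, 90 for Mef2c and 23 for Ifitm5. The profile of Mef2d was therefore common, and that of Panx3 had no close match at this setting. Panx3 and Ihh had 0 counts in the dTF-cKO, so their distances depend on the prior count of 2. Slc8a3, Mlip and Mybph were also at 0 in that library. Distances with other prior counts were not computed.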

How the data were processed

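Libraries of polyA RNA were made with an Ion Total RNA-Seq kit, per the labels' protocols. The deposited values are raw read counts per gene under a header reading Count, on mm10 per the submitters' processing notes. Which aligner, counter, annotation and strandedness were used is not given in the sources used here. Library totals were 3634819 (control), 2678457 (cKO) and 2905264 counts (dTF-cKO). The 27 symbols that had become dates held at most 0.180% of a library and are not named.

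Counts were scaled with TMM factors (edgeR 4.0.16, R 4.3.3), with 2 as the prior count for log2 CPM. Genes with a mean of at least 5 CPM were kept. Ratios carry an exact conditional (Clopper-Pearson) 95% interval, and levels an exact Poisson one. Within-library ratios carry the exact conditional interval of an odds ratio. All intervals cover counting error only, and not variation between embryos. PCR reads lacking molecular identifiers are not independent, so the intervals may be too narrow even for counting error. With 1 library per genotype no p-value was computed. The calculations were tested on simulated data with known folds. Gene positions and exon lengths came from GENCODE vM21, and 2 list symbols were matched through older names. The members and the gene lists were chosen with earlier results of these data known. Named from each of 7 pathway lists were up to 4 genes with the largest difference from the control among those at least 2-fold different with an interval excluding 1, with the 2 most abundant as a fallback. Named whatever their values were the near relatives of the members. Alternatives were library totals, DESeq2 1.42.0 size factors, totals omitting the top 20 genes per library, the stroma scaling defined in the results, other prior counts, other floors and other size rules. For 1 gene of the pathway lists, values are not reported here.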

Additional observations from a re-analysis of the deposited data

How the results depend on the processing

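No paired analysis was possible because each genotype had 1 library, and for the same reason no library could be left out. Scaling to library totals, to DESeq2 size factors or to totals without the 20 most abundant genes kept each count of lower and higher members, and shifted log2 differences by between -0.36 and 0.10. Under the stroma scaling the median log2 differences became -1.60 (cKO) and -2.05 (dTF-cKO) against the control and -0.45 between the Cre libraries, where 3 members were lower in place of 5 by fitted value, of which Ihh (7 against 0 counts) was not resolved and Panx3 and Ifitm5 were. The members at least 2-fold higher became 2 in both dTF-cKO comparisons; that scaling also brings Pthlh above the floor. A prior count of 10 gave medians of -1.57 (cKO) and -3.51 (dTF-cKO) against the control. In the cKO the median was -1.43 both with no floor and with a floor of 20 CPM, since these alter which members enter. With a 3-fold rule, 3 members were lower in the cKO. Calling by counting intervals that exclude 1 made 1 member, Mef2d, higher in the dTF-cKO than in the cKO. Mef2d in the dTF-cKO against the control, not 2-fold different, went from 1.10 to 0.857 without the 20 most abundant genes; the cause was not tested. Depth limits Pthlh and Ihh most: 13 and 57 counts in the control.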
